A study of Mus musculus with 2 samples.

Results

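Interferon-induced genes were examined in CD8 T cells of the mouse mammary gland. A list of 43 genes was matched to the gene symbols of the deposited tables, and 42 of them had a row among the 32285 genes. The gene Mx1 had no matching row and was not analysed here. The study holds 2 droplet single-cell RNA libraries, which count the 5′ ends of transcripts, of C57BL/6 mice: 1 from parous females (given as Multiparous in the labels) and 1 from virgin females. Each library pooled at least 5 mice, and live cells positive for CD45, TCRB and CD8a had been sorted from fat pad number 4, untreated and without culture. With 1 library per group there was no replicate, so no test between parous and virgin mice was possible and each difference below is one between these libraries. The labels name no infection and no interferon treatment, and the age of the mice was not used here.

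Interferons are secreted alarm proteins. Type I interferons signal through the receptor chains Ifnar1 and Ifnar2 and the kinases Jak1 and Tyk2 to a complex that includes Stat2 and Irf9 and binds the interferon-stimulated response element (ISRE) in promoters. Interferon gamma, made by T cells and natural killer cells, signals through Ifngr1 and Ifngr2 to factors that bind the gamma-activated site (GAS). The induced genes block viral replication, sense foreign nucleic acid, remodel vacuoles around microbes or feed back on the pathway, and in resting T cells many are held at a low tonic level.

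The promoter sequences of the genes that the results below turn on are shown first, since they carry the response elements by which such genes are grouped. They come from RefSeq on GRCm38.p6, written 5′ to 3′ on the strand of the gene. Capitals mark the ISRE core, GAAA, any 2 bases and GAAA again, or its reverse complement, in the genes of the first set, which are 3 of the genes used below to define interferon-high cells, and Isg15.

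Ifit1, chr19:34640784-34640833, plus strand: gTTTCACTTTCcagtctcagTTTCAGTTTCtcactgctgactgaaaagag
Ifit3, chr19:34583387-34583436, plus strand: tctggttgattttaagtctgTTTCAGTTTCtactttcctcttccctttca
Rsad2, chr12:26456543-26456592, minus strand: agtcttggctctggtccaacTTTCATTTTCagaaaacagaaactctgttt
Isg15, chr4:156200855-156200904, minus strand: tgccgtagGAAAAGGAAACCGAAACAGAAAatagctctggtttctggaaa

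Ifit3b, at chr19:34607783-34607832, had the same 50 bases as Ifit3, so these neighbouring genes are near copies there. The Isg15 run held 3 overlapping matches, and the Ifit1 stretch held 2 separate ones. The next set is from the p200 family, of which 5 of 6 genes were lower in parous cells by 1.5-fold or more, again with the ISRE core in capitals.

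Ifi203, chr1:173942498-173942547, minus strand: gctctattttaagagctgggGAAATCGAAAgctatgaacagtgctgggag
Ifi206, chr1:173491329-173491378, minus strand: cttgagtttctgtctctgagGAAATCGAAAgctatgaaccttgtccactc
Ifi208, chr1:173673587-173673636, plus strand: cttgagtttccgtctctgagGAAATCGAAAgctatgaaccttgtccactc
Ifi214, chr1:173536007-173536056, minus strand: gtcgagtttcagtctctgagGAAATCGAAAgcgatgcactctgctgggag

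Ifi213, at chr1:173599316-173599365, had the same 50 bases as Ifi208, and Ifi206 shared 49 of 50 with Ifi208. All 5 of these genes used the same 10 letters for the core, starting between 35 and 79 bases before the annotated start. Those letters occurred in 16 of 32851 promoter windows of all genes and in 0 of 35 windows of the other members. Among the 11 further genes with the letters were Ifi207 and Mndal, also of the p200 family, and the RNA sensor Ddx58. The sixth p200 member, Ifi209, had no ISRE match in its window but was among the 5 lower genes. Ifi203, which had the letters, stayed within 1.5-fold. The 5 genes with the letters are thus not the same 5 as the lower ones.

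The last pair shows a GAS core, TTCNNNGAA, in capitals. It is given for Isg20, the member with the widest difference between the libraries, and for Irf1, the member that differed least between interferon-high and other cells.

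Isg20, chr7:78913331-78913379, plus strand: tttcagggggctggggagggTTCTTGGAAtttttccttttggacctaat
Irf1, chr11:53769904-53769952, plus strand: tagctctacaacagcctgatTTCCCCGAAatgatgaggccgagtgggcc

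In all, 34 of the 43 genes had a RefSeq promoter window (250 bases before and 50 after the start, both strands searched). The ISRE core stood in 22 of these 34 genes, 64.7%, against 3.99% of 27025 genes overall. The GAS core stood in 7 of 34, 20.6%, against 9.55% of all genes. A match is a run of letters and not evidence of binding. No match in a window says nothing of elements elsewhere.

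After filtering, 2991 parous and 2502 virgin cells of the CD8 sort were compared, called CD8 T cells below, with 13279497 and 19944371 unique molecular identifiers (UMIs, each 1 captured RNA molecule). Median depth was lower in the parous library, 4108 against 7002 UMIs per cell. The cells formed 10 clusters, made without any member or pathway gene. RNA of the CD3 chain gene Cd3e was seen in 96.5% to 99.6% of the cells of clusters 0 to 8. Cd8a RNA was seen in 53.1% to 99.1% of the cells of a cluster, and Cd8b1 in 66.4% to 97.8% except in cluster 6, led by Gzmc, Fcer1g and Tyrobp, where it was 21.8%. Cluster 9, of 154 parous and 53 virgin cells, was low in RNA and had Cd3e in 73.9%, Cd8a in 53.1% and Cd8b1 in 69.1% of its cells. Fabp4 and the myeloid marker Cst3 were among its leading genes. It was kept, since it carried 1 marker of its closest fixed list, the myeloid one, and leaving it out needed 3 of that list. Fabp4 is on the fixed adipocyte list. The members' counts without cluster 9 are given below. A further 28 parous and 9 virgin cells were left out. They were led by the epithelial genes Krt8 and Krt7 but were left out for carrying 7 fixed myeloid markers, Lyz2 and Csf1r among them. Cd3e was seen in 67.6%, Cd8a in 54.1% and Cd8b1 in 70.3% of these cells, shares close to those of cluster 9. The libraries shared 13 barcodes among CD8 T cells, and an interferon-high cell, as defined below, bore such a barcode in 0 parous and 1 virgin cases.

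Across all CD8 T cells, more members were lower than higher in the parous library, and most lay within the threshold. Levels are counts per 1000000 UMIs of the CD8 T cells of a library (CPM), and differences are log2 ratios of parous over virgin with 0.5 added to each count. A member was counted as higher or lower at 1.5-fold or more, and as measured with at least 30 UMIs over both libraries, which 41 members passed. Oas2, with 3 and 11 UMIs, did not. Of the 41, 3 were higher, 15 lower and 23 within 1.5-fold, while among all 11947 genes measured 6.00% were higher and 14.0% lower. The median log2 ratio of the members was −0.44, against −0.14 for all genes, and 37 of 41 lay below 0. With median-of-ratios scaling, which sets the all-gene median to 0, the members' split was 3 higher and 7 lower, with 31 below 0, beside 8.26% of all genes higher and 9.66% lower. On that scale 8 of the 15 lower members were within 1.5-fold. Intervals in the text are exact Poisson 95% intervals. They cover the error of counting alone and leave out any variation among mice or library preparations.

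**Figure D1:**
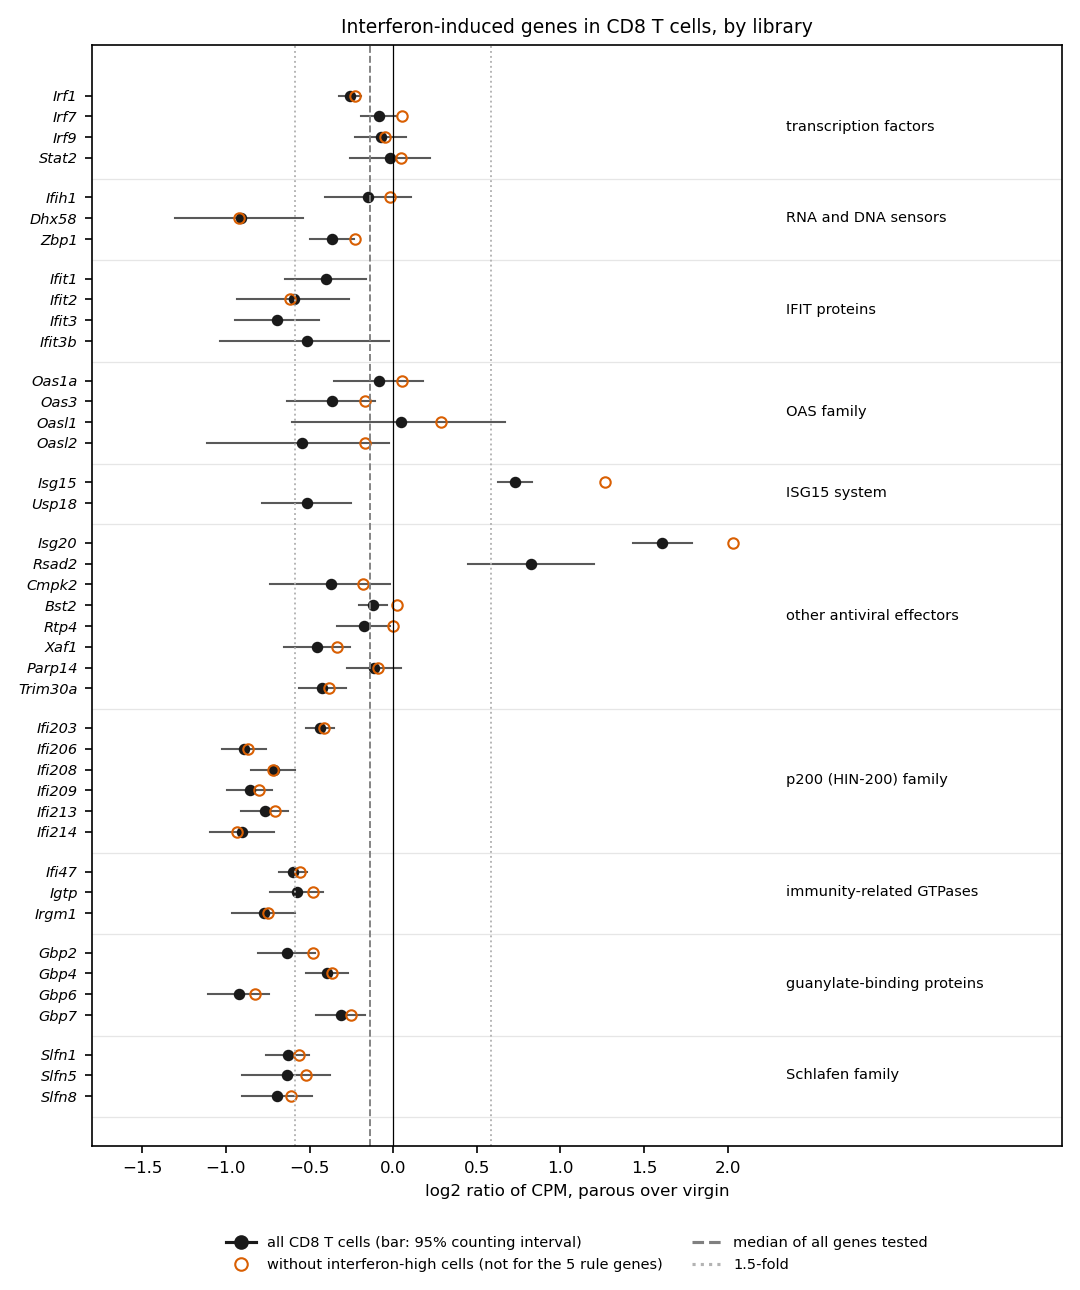
Log2 ratio of CPM, parous over virgin, for the 41 members measured, by role. Filled points are all CD8 T cells with 95% counting intervals. Open circles leave out interferon-high cells found at full depth (not drawn for the 5 genes that define those cells). The dashed line is the median of all genes and dotted lines mark 1.5-fold. Isg20, Isg15 and Rsad2 lie to the right, and 37 of 41 filled points lie left of 0.

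The transcription factors differed little. Irf1, a factor downstream of interferon gamma, stood at 221 CPM (213 to 229) in parous and 264 CPM (257 to 271) in virgin cells. Irf7, the amplifier of type I interferon production, stood at 85.8 and 90.8 CPM, Irf9 at 43.8 and 46.1 CPM, and Stat2 at 18.1 and 18.3 CPM. Their log2 ratios ran from −0.26 to −0.02 with a median of −0.08. With median-of-ratios scaling 1 of the 4, Irf1, remained below 0.

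Among the sensors of foreign nucleic acid only Dhx58 (LGP2) passed 1.5-fold. It was at 5.95 CPM (4.71 to 7.41) in parous and 11.2 CPM (9.81 to 12.8) in virgin cells, 1.88-fold lower. Zbp1, a sensor of Z-form nucleic acid, was at 53.9 and 69.4 CPM, and Ifih1 (MDA5) at 15.4 and 17.0 CPM, the intervals of Ifih1 overlapping.

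The IFIT proteins, which bind viral RNA and hinder its translation, all lay below 0. Of the 4, 2 were at least 1.5-fold lower, beside 14.0% of all genes. Ifit3 was at 14.2 CPM (12.2 to 16.3) in parous and 22.9 CPM (20.9 to 25.1) in virgin cells, log2 −0.69. Ifit2 was at 8.13 and 12.3 CPM, log2 −0.59, just past the threshold. Ifit1, at 16.2 and 21.4 CPM, and Ifit3b, at 3.77 and 5.42 CPM, stayed within it. With median-of-ratios scaling 0 of the 4 passed. These counts were uneven between cells: the 5 cells with most UMIs held 26.5% of parous and 19.0% of virgin Ifit1 UMIs. Reads from Ifit3 and Ifit3b may also have been shared between the copies, since how reads were assigned is not stated.

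The OAS family includes enzymes that make a nucleotide messenger that switches on RNA decay. None of its 4 measured genes passed 1.5-fold. Oas3 was at 13.9 and 18.0 CPM, Oas1a at 14.3 and 15.2 CPM, Oasl2 at 3.24 and 4.76 CPM and Oasl1 at 2.79 and 2.71 CPM in parous and virgin cells. The log2 ratios ran from −0.55 to 0.05.

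The ISG15 system was split. Isg15, a ubiquitin-like protein joined to other proteins, was at 122 CPM (116 to 128) in parous and 73.4 CPM (69.7 to 77.3) in virgin cells, 1.66-fold higher. Usp18, which removes ISG15 and also dampens receptor signalling, was at 13.3 CPM (11.4 to 15.4) and 19.0 CPM (17.1 to 21.0), log2 −0.51. The intervals did not overlap for either gene, and the directions were opposite.

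Among the other antiviral effectors 2 of 8 were higher and 0 lower, beside 6.00% and 14.0% of all genes. Isg20, an exonuclease that degrades RNA, showed the widest difference of all members, with 60.8 CPM (56.6 to 65.1) in parous and 19.9 CPM (18.0 to 22.0) in virgin cells, 3.05-fold. Rsad2 (viperin), which makes a chain-terminating nucleotide, was at 9.86 CPM (8.25 to 11.7) and 5.57 CPM (4.58 to 6.70), 1.77-fold. Its neighbour Cmpk2, a nucleotide kinase next to Rsad2 on chromosome 12, went the other way, at 7.53 and 9.78 CPM. The Rsad2 counts were uneven between cells: the 5 cells with most UMIs held 24.4% of parous and 18.9% of virgin UMIs. Rsad2 was seen in 72 parous cells (2.41%) and 63 virgin cells (2.52%). With cells thinned to equal depth it was seen in 0.942% (0.622 to 1.37%) of parous and 0.603% (0.338 to 0.992%) of virgin cells. These exact binomial intervals overlapped. The CPM intervals do not allow for the unevenness. Bst2 (tetherin), which holds budding virus on the cell, was at 136 and 148 CPM, and Trim30a at 47.6 and 63.8 CPM. Rtp4 (38.8 and 43.8 CPM), Xaf1 (23.7 and 32.5 CPM) and the ADP-ribosyltransferase Parp14 (39.3 and 42.5 CPM) also stayed within 1.5-fold.

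Without clusters 3 and 6, which hold almost only parous cells, Isg20 stood at log2 0.84 in place of 1.61, and Isg15 at 0.48 in place of 0.73, no longer 1.5-fold. Rsad2 stood at 1.05 in place of 0.82. The members' count was then 2 higher and 11 lower, beside 3.88% and 14.8% of all genes, with a median of −0.31 beside −0.18. With each state weighted equally it was 2 and 17, beside 5.48% and 15.3%, with a median of −0.49 beside −0.14. Without the cycling cluster 8 it was 3 and 14 (6.08% and 12.2%), without cluster 9 also 3 and 14 (5.89% and 14.1%), and with all cells thinned to equal depth 3 and 14 of 40 (5.95% and 11.7%).

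The p200 family, nuclear proteins with a HIN domain that bind DNA, was the group with the lowest median. All 6 genes lie on chromosome 1. In parous cells 5 were at least 1.5-fold lower, beside 14.0% of all genes, with a median log2 ratio of −0.81. Ifi206 was at 48.6 CPM (44.9 to 52.5) in parous and 90.3 CPM (86.1 to 94.5) in virgin cells. Ifi214 was at 22.8 CPM (20.3 to 25.5) and 42.7 CPM (39.8 to 45.6), and Ifi209 at 45.0 CPM (41.4 to 48.7) and 81.5 CPM (77.6 to 85.6). Ifi213 was at 42.8 and 72.9 CPM and Ifi208 at 50.8 and 83.4 CPM. Ifi203, the exception, was at 128 CPM (122 to 134) and 173 CPM (167 to 179), log2 −0.44. In no gene of the family did the intervals of the libraries overlap, and 4 of 6 stayed at least 1.5-fold lower with median-of-ratios scaling. The genes are related in sequence, so reads may be split between them, and they do not count as 6 separate measurements.

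Of the 10 GTPases and Schlafen genes, 7 were at least 1.5-fold lower, beside 14.0% of all genes. The immunity-related GTPases, which attack the vacuoles of intracellular microbes, had 2 of 3 lower. Ifi47 was at 125 CPM (119 to 131) in parous and 189 CPM (183 to 195) in virgin cells, Irgm1 at 24.4 and 41.7 CPM, and Igtp at 35.5 and 52.8 CPM, log2 −0.57. Of the guanylate-binding proteins, which coat such vacuoles and bacteria, 2 of 4 were lower. Gbp6 was at 25.4 CPM (22.7 to 28.2) and 48.2 CPM (45.2 to 51.3), 1.90-fold lower and the lowest of the 41 at log2 −0.92, and Gbp2 at 30.7 and 47.7 CPM. Gbp4 (57.8 and 76.0 CPM) and Gbp7 (45.5 and 56.6 CPM) stayed within 1.5-fold. All 3 Schlafen genes, tied to T cell quiescence and to RNA cleavage, were lower. Slfn1 was at 52.3 and 81.0 CPM, Slfn8 at 20.1 and 32.5 CPM and Slfn5 at 13.0 and 20.2 CPM. With median-of-ratios scaling, Irgm1 and Gbp6 were the genes of these 3 groups that passed 1.5-fold.

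A small set of cells was set apart by 5 of the members. An interferon-high cell was one with at least 3 of Ifit1, Ifit3, Ifit3b, Rsad2 and Usp18 seen, that is with at least 1 UMI each. Since detection rises with depth, each cell was first thinned at random to 1400 UMIs, which left out 125 parous and 14 virgin cells. On that footing 14 of 2866 parous cells (0.488%, exact binomial 95% interval 0.267 to 0.818%) and 13 of 2488 virgin cells (0.523%, 0.278 to 0.892%) were interferon-high. The intervals overlapped almost wholly, and no difference in frequency was detectable at this depth. At full depth, where virgin cells were deeper, the numbers were 34 of 2991 (1.14%, 0.788 to 1.58%) and 71 of 2502 (2.84%, 2.22 to 3.57%). Of the thinned cells, 7 parous and 6 virgin cells had exactly 3 of the 5 genes, while 12 and 22 had 2 and fell just outside. The cells outside the CD8 clusters held 0 of 28 parous and 1 of 9 virgin interferon-high cells. The 1908 parous barcodes that failed the filter held 0. They were not matched for depth, so the 0.157% that 3 counts of that total allow is a limit on barcodes with the genes seen.

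The other 37 members, which the rule did not use, were far higher in these cells. At full depth they summed to 11755 CPM inside and 1604 CPM outside interferon-high cells of the parous library, 7.33-fold, and to 8408 and 1932 CPM in the virgin library, 4.35-fold. In the parous library all 26 of the other members with enough UMIs were at least 1.5-fold higher inside, with a median log2 ratio of 2.81 beside −0.03 for all genes, of which 12.6% were higher. In the virgin library it was 35 of 35, with a median of 2.25 beside 0.10 and 14.1% of all genes higher. Enough UMIs meant at least 3 expected inside from the share of all UMIs there, so 11 and 2 of the 37 could not be counted. The expected number came from a gene's UMIs inside and outside together, so a gene could pass by being high inside. Oasl2 did so in the virgin library, with 39 UMIs inside and 56 outside. The counts are therefore a description.

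Per cell the pattern was also seen at equal depth. A thinned interferon-high cell held a median of 22.5 UMIs of the other 37 members in the parous library (12 to 40) and 19 in the virgin library (6 to 61), against 2 in other cells of either library. The number of other members seen was 2 at the median where none of the 5 rule genes was seen, 3 and 4 with 1, and 6.5 and 10 with 2, in parous and virgin cells. It was 13 and 9.5 with 3 of the 5 seen, 16 and 11.5 with 4, and 11.5 and 20 with all 5, the last on 2 parous and 3 virgin cells. The medians did not rise at every step: the virgin one was lower with 3 genes than with 2, and the parous one lower with 5 than with 4.

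**Figure D2:**
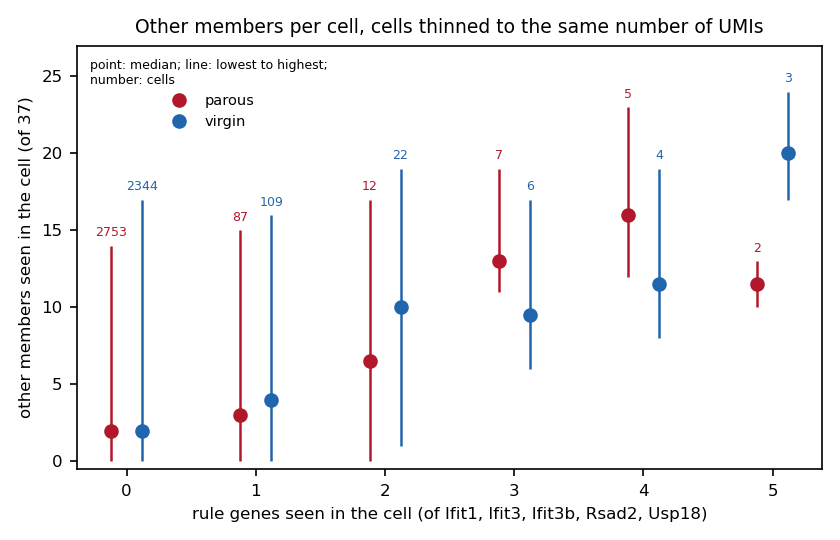
Number of the other 37 members seen in a cell (vertical axis) by the number of the 5 rule genes seen (horizontal axis), each cell thinned to 1400 UMIs. Points are medians, lines run from the lowest to the highest cell and the numbers above count cells. The median is 2 in the 2753 parous and 2344 virgin cells with none of the 5 genes and 13 and 9.5 with 3 of them.

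The 5 rule genes, given as a description since they chose the cells, were concentrated there: 54.3% of their parous and 60.8% of their virgin UMIs lay in interferon-high cells. Ifit1 stood at 789 CPM inside and 6.56 outside in the parous library, and at 345 and 7.79 CPM in the virgin library. Rsad2 stood at 483 and 3.96 CPM, and at 91.7 and 1.93 CPM. Usp18, the least concentrated of the 5, had 36.4% of its parous and 43.1% of its virgin UMIs inside.

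Of the other members, Cmpk2, Oasl1 and Oasl2 had the steepest step when all 37 were ranked by the smaller of the ratios of the libraries. Oasl1 had too few expected UMIs in both libraries to be counted above, and Cmpk2 and Oasl2 had too few in the parous one. Of the members with enough UMIs in both, Isg15 had the steepest step. Cmpk2 was at 220 CPM (154 to 305) inside and 4.88 (3.76 to 6.23) outside in the parous library, and at 110 CPM (88.6 to 136) and 5.54 (4.53 to 6.70) in the virgin library. Oasl1, on only 12 and 24 UMIs inside, was 39.3-fold and 19.0-fold higher inside. Oasl2 was 22.1-fold and 16.6-fold higher, on 9 and 39 UMIs. Isg15 was at 1572 CPM (1385 to 1776) inside and 104 (98.3 to 109) outside in the parous library, and at 791 CPM (730 to 854) and 43.2 (40.3 to 46.2) in the virgin library.

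The shallowest steps were those of Irf1, Irf9 and Ifi203. Irf1 was at 538 CPM (432 to 663) inside and 217 (209 to 225) outside in the parous library, and at 488 CPM (441 to 539) and 255 (248 to 262) in the virgin library, 2.49-fold and 1.92-fold. Irf9 was 3.38-fold and 2.15-fold higher inside, and Ifi203 4.79-fold and 2.54-fold. Even for these genes the intervals inside and outside did not overlap in either library.

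**Figure D3:**
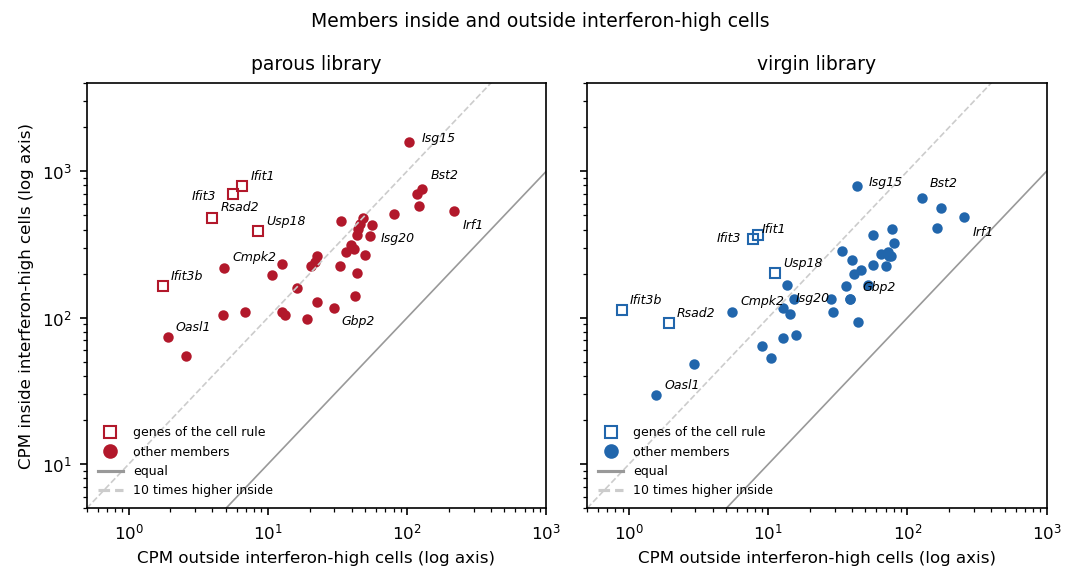
CPM inside (vertical, log axis) against outside (horizontal, log axis) interferon-high cells at full depth, 1 panel per library, for 41 members. Open squares are the 5 rule genes, the solid line marks equal levels and the dashed line a level 10 times higher inside. All points lie above the solid line, with Irf1 nearest to it at 2.49-fold in parous and 1.92-fold in virgin cells.

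The share of a member's RNA held by interferon-high cells differed widely between members. At full depth, these cells held 1.23% of all parous and 4.05% of all virgin UMIs, and 8.37% (8.01 to 8.73%) and 15.5% (15.2 to 15.9%) of the UMIs of the other 37 members. Cmpk2 had 36% of its parous and 45.6% of its virgin UMIs inside. Isg15 had 15.9% and 43.6%, Isg20 8.67% and 33.8%, and Irf1 3.0% and 7.48%. The libraries differed in depth, so these shares are not compared between them. At equal depth interferon-high cells held 0.488% of parous and 0.523% of virgin UMIs, and 4.74% (4.26 to 5.25%) and 3.70% (3.29 to 4.14%) of the UMIs of the other 37 members, so the order of the libraries turned. In each library most Isg15 and Isg20 RNA lay in cells that were not interferon-high.

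Leaving out the interferon-high cells found at full depth widened the Isg15 and Isg20 differences. These were 34 parous and 71 virgin cells, from libraries of unequal depth. They held 15.9% of parous but 43.6% of virgin Isg15 UMIs. The part of depth in the widening and in the counts below was not tested. Outside these cells Isg20 stood at 56.2 CPM in parous and 13.7 CPM in virgin cells, log2 2.03. Isg15 stood at 104 and 43.2 CPM, log2 1.26. The 5 rule genes are left out here, since the cells were removed by them. Of the other 36 measured members 2 were higher and 10 lower, with a median of −0.35, beside 5.89% and 13.9% of all genes. With all cells the same 36 had 2 higher and 14 lower, with a median of −0.43. In the p200 family 5 of 6 were lower, and the median was −0.76.

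Interferon-high cells differed from other cells in more than the members. Their median depth was 4617 against 4102 UMIs in the parous and 7341 against 6991 UMIs in the virgin library, and mitochondrial shares were 0.993% against 1.02% and 0.927% against 1.14%. The summed level of 8 virtual memory markers, genes of T cells with a memory look and no known antigen encounter, was 18647 against 15698 CPM in parous and 16519 against 10797 CPM in virgin cells. The summed level of 9 naive markers was 1021 against 1265 CPM and 605 against 2119 CPM. The 10 cycling markers were at 24.5 against 243 CPM in the parous and 1216 against 656 CPM in the virgin library, with 0 of 34 and 10 of 71 interferon-high cells in the cycling cluster. The 8 myeloid markers summed to 135 against 148 CPM and 213 against 135 CPM, and the B cell markers to 0 against 8.46 CPM and 4.96 against 13.2 CPM. The part of these differences in the members' levels was not tested.

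Interferon-high cells lay in several clusters, with the largest number in cluster 1 in each library. Cluster 1, led by Gzmm and carrying Eomes, Ly6c2, Cxcr3 and Il18rap, was left unnamed because none of its markers led it. It held 15 of 34 parous interferon-high cells and 28 of 71 virgin ones, 44.1% and 39.4%, with 23.5% and 18.7% of all cells. Cluster 4, Gzmk or exhausted-like (Gzmk, Pdcd1, Tigit, Lag3), held 4 and 13. Cluster 2 held 5 and 4, cluster 5 held 3 and 9, and the cycling-like cluster 8 held 0 and 10. By share of a cluster's cells, cluster 4 was highest in the parous library (2.50%). In the virgin library cluster 8 was highest (6.62%), and clusters 1 (5.98%) and 5 (5.14%) were also above cluster 4 (4.87%). Cluster 0, naive or central memory-like (Ccr7, Lef1), held 3 and 3 of 482 and 983 cells. At equal depth the numbers were 6 and 4 in cluster 1, 3 and 4 in cluster 4 and 0 and 0 in cluster 0, too few to rank the clusters.

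The summed level of the 42 members also differed between states. It was highest in cluster 4, 2877 CPM (2738 to 3021) in parous and 3437 CPM (3343 to 3534) in virgin cells. Cluster 5, tissue-resident memory-like (Itga1, Cxcr6, Zfp683, P2rx7, Ccr8), was at 2232 and 3143 CPM, and cluster 1 at 2105 and 2797 CPM. The naive-like cluster 0 was at 1540 CPM (1489 to 1593) and 1797 CPM (1766 to 1828). Cluster 2, Ly49 and Helios-like (Ikzf2, Klra6, Klra7), was at 1348 and 1888 CPM, and the cycling-like cluster 8 at 1417 and 2258 CPM. The virgin library was above the parous one in each of these 6 clusters, without overlap of intervals. In cluster 7, circulating effector-like (S1pr5, Cx3cr1, Klrg1), the libraries were at 2125 CPM (1963 to 2296) and 2078 CPM (1994 to 2164) and overlapped. Clusters 3 (tissue-resident memory-like, Itgae and Cdh1) and 6 held 473 and 314 parous but 25 and 3 virgin cells, so they were not compared. Their parous levels were 1855 and 1387 CPM.

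Gene by gene, the median member was lower in parous cells in each of the 8 compared states. In cluster 0, 2 members were higher and 10 lower of 37, beside 3.51% and 16.0% of all genes. In cluster 1 it was 0 and 19 of 40 (3.27% and 13.7%), and in cluster 2 it was 1 and 16 of 36 (3.79% and 15.7%). Cluster 4 had 1 and 6 of 37 (5.39% and 14.7%), a share of lower members near that of all genes. Cluster 5 had 2 and 20 of 34 (6.94% and 17.7%), cluster 7 had 4 and 4 of 26 (8.47% and 17.9%), and cluster 8 had 1 and 24 of 37 (8.45% and 18.6%). The low-RNA cluster 9 had 0 and 0 of 7 (17.0% and 15.3%). Median log2 ratios of the members ran from −0.93 in cluster 8 to −0.22 in cluster 7, each below that of all genes in the same cluster, which ran from −0.16 to 0.03. The 10 interferon-high cells of cluster 8 were all virgin, and its median depth was 8038 against 17738 UMIs.

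The p200 genes were mostly below 0 across states, as was the median of all genes in each compared state except cluster 9. Ifi206, Ifi209, Ifi213 and Ifi214 were below 0 in 7 of 7 states with enough UMIs, Ifi208 in 8 of 8 and Ifi203 in 7 of 8. The family's median lay below that of all genes in each compared state. In cluster 4, though, the highest p200 ratio was −0.06, above the all-gene median of −0.09. The family was lowest in cluster 5, where 6 of 6 passed 1.5-fold, all towards virgin, and the median was −1.23. There Ifi206 was 2.59-fold lower, with an interval of 34.4 to 70.2 CPM in parous and 131 CPM (110 to 155) in virgin cells. In cluster 4 it stood at 91.0 CPM (67.7 to 120) and 135 CPM (117 to 155), with overlapping intervals. Ifi47 was below 0 in 8 of 8 states, and Irgm1, Gbp4, Gbp6, Slfn1 and Slfn8 in 7 of 7. The share of all genes below 0 is not given, so these counts are a description.

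The 3 higher members followed different states. Isg15 was at 53.0 CPM (43.9 to 63.6) in parous and 25 CPM (21.5 to 28.9) in virgin cells of cluster 0, 2.13-fold, and at 187 CPM (141 to 243) and 87.1 CPM (70.7 to 106) in cluster 7, 2.16-fold. In cluster 8 it lay the other way, at 92.9 CPM (70.5 to 120) and 120 CPM (108 to 134), with overlap. Isg20 was at 30 CPM (23.2 to 38.1) and 10.8 CPM (6.91 to 16.0) in cluster 2, 2.74-fold, and at 72.1 CPM (52.6 to 96.4) and 22.0 CPM (16.9 to 28.2) in cluster 8, 3.28-fold. In cluster 4 the Isg20 levels were 42.8 CPM (27.4 to 63.7) and 47.1 CPM (36.6 to 59.6). Its highest levels were in the almost wholly parous clusters 3 and 6, 153 CPM (136 to 172) and 134 CPM (115 to 155), which held 34.6% and 21.7% of all parous Isg20 UMIs. Rsad2 instead had 45.8% of its parous and 43.2% of its virgin UMIs in cluster 1, where it was at 17.8 CPM (13.6 to 22.9) and 13.4 CPM (9.88 to 17.8). In cluster 4 it was at 32.1 CPM (19.0 to 50.7) and 12.3 CPM (7.28 to 19.4), 2.61-fold with a slight overlap, on 18 UMIs in each library.

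**Figure D4:**
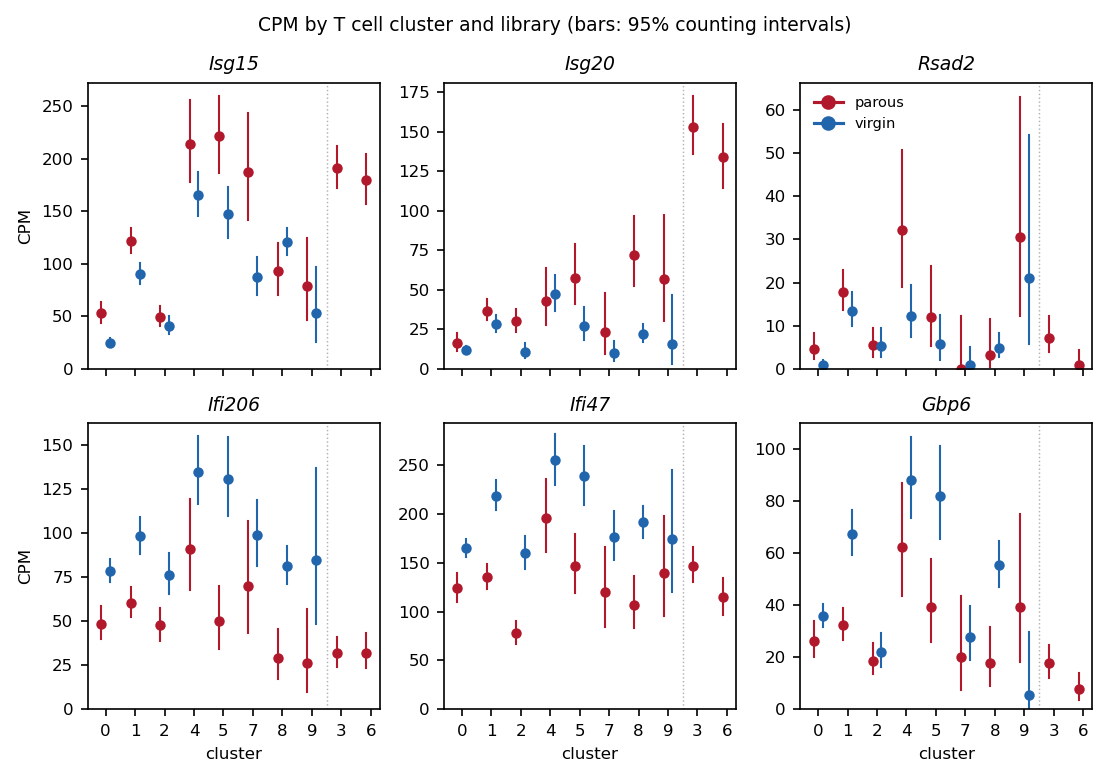
CPM of 6 members by cluster and library with exact Poisson 95% intervals. Clusters right of the dotted line (3 and 6) hold 25 and 3 virgin cells and show the parous library only. Isg20 is highest in clusters 3 and 6, at 153 and 134 CPM, while Ifi206 and Ifi47 are lower in parous cells in each compared cluster.

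The genes of the signalling pathway, from lists outside the 43, moved unevenly. Of 21 interferon genes Ifng alone had enough UMIs, at 149 CPM (142 to 156) in parous and 184 CPM (178 to 190) in virgin cells. The type I receptor chains were near equal, Ifnar1 at 80.4 and 86.9 CPM and Ifnar2 at 119 and 111 CPM. The interferon gamma receptor chains parted, with Ifngr1 at 678 CPM (664 to 692) and 466 CPM (456 to 475), log2 0.54, and Ifngr2 at 20.1 CPM (17.8 to 22.7) and 38.4 CPM (35.7 to 41.2), log2 −0.93. Ifngr2 was a leading gene of cluster 0, which held 16.1% of parous but 39.3% of virgin cells. Within cluster 0 the 5 measured receptor genes, Ifngr2 among them, ran from log2 −0.17 to 0.72. There 1 was higher and 0 lower, beside 3.51% and 16.0% of all genes. The part of cell states in the Ifngr2 difference was not tested. Jak1 was at 315 and 359 CPM and Tyk2 at 19.9 and 23.1 CPM.

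Of 8 negative regulators 2 were higher and 0 lower, beside 6.00% and 14.0% of all genes. As a list they lay near all genes, with 5 of 8 below 0 and a median of −0.12 beside −0.14. Socs1, which blocks JAK kinases, was at 324 CPM (314 to 334) and 200.4 CPM (194 to 207), log2 0.69, and Cish, of the same family, at 110 and 60.0 CPM, log2 0.88. Of 5 other interferon regulatory factors 1 was higher and 0 lower, with 4 below 0, beside the same shares of all genes. The higher one, Irf8, was at 29.7 and 18.7 CPM, log2 0.67. Of 9 measured genes of nucleic acid sensing 0 were higher and 1 lower, beside those shares. The lower one, the kinase Ikbke, was at 17.9 and 28.0 CPM, log2 −0.64. Among 77 further interferon-induced genes 2 were higher and 15 lower, with a median of −0.30, beside the 6.00% and 14.0% of all genes. The widest were Gbp10 (−1.63), Iigp1 (−1.37) and Tgtp1 (−1.34), all GTPases, and the antiviral membrane protein Ifitm1 (1.33, at 4.44 and 1.75 CPM).

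Of the 6 JAK and STAT genes 2 were at least 1.5-fold higher inside interferon-high cells in each library, beside 12.6% and 14.1% of all genes. Jak1 and Ifnar1 were within 1.5-fold of their level outside. Jak1 was at 318 CPM inside and 315 outside in the parous library and at 328 and 360 CPM in the virgin library. Ifnar1 was 1.26-fold and 1.08-fold higher inside, and Ifnar2 was at 67.3 CPM (33.6 to 120) against 120 in the parous and 125 against 110 CPM in the virgin library. Ifng was at 202 CPM (139 to 283) inside and 148 (142 to 155) outside in the parous library, with overlap, and at 318 CPM (281 to 360) and 178 (172 to 184) in the virgin library. Ifngr2, with 1 and 2 UMIs inside, was at 6.12 CPM (0.15 to 34.1) and 2.48 CPM (0.30 to 8.95) there, against 20.3 and 39.9 CPM outside. Cluster 0, which Ifngr2 helped lead, held 3 of the 34 parous and 3 of the 71 virgin interferon-high cells.

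Genes outside all lists were ranked by the smaller of the ratios of the libraries, inside over outside, among 2170 genes with at least 10 UMIs inside in each library and seen in at least 10% of those cells. These limits look only inside the cells, so a gene can pass by being high there, and the ranking is a description. The 12 at the top were A930037H05Rik, Tmem140, Tmem184b, Trafd1, Nampt, Jaml, Naa20, Slc25a22, B4galt5, Cd274, Ppa1 and Zup1. Of these, 8 had at least 3 expected UMIs inside in both libraries, and A930037H05Rik, Tmem140, Tmem184b and Slc25a22 did not in the parous one. Trafd1, a regulator of innate immune signalling, was 3.44-fold and 5.37-fold higher inside, at 122 and 176 CPM. Cd274, which encodes the checkpoint ligand PD-L1, was 5.00-fold and 2.80-fold higher, at 269 and 125 CPM. Nampt, the rate-limiting enzyme of NAD salvage, was 5.04-fold and 3.34-fold higher. The likeness rests on 34 parous and 71 virgin cells.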

How the data were processed

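The authors deposited, for both libraries, tables of UMI counts by gene and cell barcode, not normalized and made with Cell Ranger 7.0.0 on mm10, per the submitters' processing notes, where R 4.4.2 and Seurat are listed with no role stated. How cells were called and whether counting used strand are not given in the sources used here. A cell was kept if it had 500 genes or more, 1000 UMIs or more and a mitochondrial share under 10%, which left out 1908 of 4927 parous and 15 of 2526 virgin barcodes. Scrublet, run in scanpy 1.11.5, marked 2 and 11 cells, under 0.5% of each library. It was taken not to have worked, and those cells were kept, so doublets remain.

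For clustering, virgin counts were thinned to 58.7%, and the members and pathway genes, along with mitochondrial, ribosomal, immunoglobulin and T cell receptor genes, were set aside. The settings were 2000 variable genes, 30 principal components, 15 neighbours and Leiden resolution 0.8 (leidenalg 0.10.2), without integration. Clusters were named from fixed markers, and compared between libraries only with at least 50 cells in each. UMIs were summed per library, state or set of interferon-high cells, with exact Poisson or Clopper-Pearson 95% intervals (scipy 1.17.1, numpy 2.4.6, pandas 2.3.3, Python 3.11.15, matplotlib 3.10.9). The scripts were tested on simulated data. Promoters were matched by symbol to RefSeq windows on GRCm38.p6.

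Genes named with values were, per role, the 2 with most UMIs, every member at least 1.5-fold apart, the 5 rule genes, the 3 largest and 3 smallest inside-to-outside steps, fixed signalling genes, up to 4 further genes per pathway list and the 12 genes most like the members. A few more members were named so that each is accounted for. Some genes of the fixed lists are not reported here. The members and lists were chosen with earlier results of these data known. Alternatives changed the scaling, the count minimum, the fold, the cell filter, the weighting of cells and states, the thinning, the rule for interferon-high cells and the clustering.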

Additional observations from a re-analysis of the deposited data

How the results depend on the processing

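The lower count of the members depended on scaling and on the threshold. It was 15 as reported and 7 with median-of-ratios scaling, beside 14.0% and 9.66% of all genes. With a threshold of 2-fold 1 member (Isg20) was higher and 0 lower. The share of all genes at 2-fold is not given, so these counts cannot be set against all genes. With each state weighted equally the counts were 2 higher and 17 lower, beside 5.48% and 15.3% of all genes, with a median of −0.49. With cells thinned to equal depth they were 3 and 14 of 40, beside 5.95% and 11.7% of all genes, with a median of −0.42. The ratios of 10 of the 40 moved past their counting interval. Clusters were left out after seeing the data. Without clusters 3 and 6 there were 2 higher and 11 lower, beside 3.88% and 14.8% of all genes. It was 3 and 14 without cluster 8 (6.08% and 12.2%), and 3 and 14 without cluster 9 (5.89% and 14.1%).

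The frequency of interferon-high cells depended on depth and on the rule. With at least 2 of the 5 genes it was 0.907% in parous and 1.41% in virgin cells, with at least 4 it was 0.244% and 0.281%, and without thinning it was 1.14% and 2.84%. Another random draw gave 0.523% and 0.523%. A run over all cells passing the filter, which changed both the cells and the draw, gave 0.311% and 0.801%. The fold of the other 37 members inside over outside, 7.33 in parous and 4.35 in virgin cells, was 4.98 and 3.65 with at least 2 genes, 10.1 and 4.94 with at least 4, and 10.1 and 7.31 after thinning. At Leiden resolution 1.2 the member median lay below that of all genes in 81.8% of 11 states, against 100% of 8. No paired analysis was possible because each group had 1 library. With no replicates, depth sets only the counting error, a half-width of 0.18 in log2 for the median member, and differences between mice cannot be told apart from those between libraries.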

Other observations

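Genes of antigen presentation, which interferon also induces, lay near the median of all genes when the libraries were compared. Of 14 such genes (among them B2m, H2-K1, Tap1 and Psmb8) 0 were at least 1.5-fold apart, and their median log2 ratio was −0.15, close to the −0.14 of all genes. Inside interferon-high cells they summed to 14293 CPM against 11069 CPM outside in the parous library and to 15391 against 11157 CPM in the virgin library, a smaller step than that of the members.

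When the interferon genes were allowed into the clustering, a cluster of 36 parous and 72 virgin cells formed. Its leading genes were Ifit3b, Ifit3, Ifit1, Rsad2, Cmpk2, Usp18, Cxcl10, Oasl2 and Oasl1. It held 29 of the 34 parous and 48 of the 71 virgin interferon-high cells. Of the others in the virgin library, 9 stayed with the cycling cells. The genes allowed in included Ifit1, Ifit3, Ifit3b, Rsad2 and Usp18, by which interferon-high cells were chosen. The overlap is thus built in at least in part, and the counts are a description. Cxcl10, a chemokine that draws CXCR3-bearing T cells, was at 1101 CPM (946 to 1274) inside and 17.7 (15.5 to 20.1) outside interferon-high cells of the parous library, and at 311 CPM (274 to 352) and 12.8 (11.2 to 14.5) in the virgin library. It was chosen for mention after its values were seen.

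Genes of the stress of tissue dissociation did not move as a list. Of 12, Atf3 was higher in the parous library (36.5 and 17.6 CPM, log2 1.06), and Fos (665 and 1216 CPM, log2 −0.87) and Jun (273 and 431 CPM, log2 −0.66) were lower. Their summed level was 5180 CPM inside and 5637 outside interferon-high cells of the parous library and 5049 and 5614 CPM in the virgin library.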
